A study of Caenorhabditis elegans with 3 samples.

Results

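The cullins and the Skp1-related proteins are scaffold and adaptor subunits of ubiquitin ligases, and their genes were followed here in Caenorhabditis elegans, a nematode, using early young adult hermaphrodites. The genes were taken by name: every probe whose single gene symbol on the platform starts with cul-, skr- or ubc- and that had a value on all 3 arrays. This gave 21 genes, 5 cul- and 16 skr- genes, each with 1 probe, of 15062 genes measured in all. No probe of the annotation used carried a ubc- symbol. The E2 conjugating enzymes of that name are therefore not analysed here, and the group is described as the cullin and Skp1-related genes. Of the 27 cul- and skr- symbols in the reference gene table, cul-3, skr-4, skr-7, skr-10, skr-14 and skr-18 had no listed probe and are not analysed here.

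Each of the 3 samples was a two-colour DNA microarray. One channel carried mRNA from a single prep of the worms, hermaphrodites at an early point of young adulthood, and the other mRNA of a mixed wild-type reference, so every value is a log2 ratio of worms to reference. The preps are the only group, and the labels give neither the worms' strain or age in hours nor the makeup of the reference. Nothing in the labels says that the preps were separate cultures, so p-values cover prep-to-prep spread alone, possibly of technical origin.

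In ubiquitylation an E1 enzyme activates ubiquitin, an E2 enzyme carries it and an E3 ligase selects the substrate. In cullin ligases, a large class of E3 enzymes, the cullin holds a RING protein, which recruits the E2, at one end and an adaptor with a substrate receptor at the other. In the SCF ligase the cullin is CUL-1, the adaptor is a Skp1 protein and the receptor an F-box protein. Nematodes carry an expanded set of Skp1-related genes, and SCF ligases control cell cycle exit, germline fate and embryonic development in this animal.

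The direction worms over reference is likely rather than settled, since no source used here gives the dyes. It rests on the labels' channels and on the adult cuticle collagen genes, of which 3 of 3 were above the reference with a median log2 ratio of 2.60. With the sign turned every direction given here would be reversed. Germline and oocyte markers were above the reference in 10 of 10 genes, with medians of 1.87, 1.81 and 1.24 in preps 1, 2 and 3. Sperm markers were above in 9 of 11, neuron markers were below in 5 of 9, and muscle markers were above in 2 of 8. Intestine markers were above in 4 and below in 2 of 8, and male neuron markers were below in 1 of 7. Over all genes 21.7% were above and 22.2% below. The muscle and male neuron counts lie near these shares and are not read as results about those cells. In RNA of whole worms, fewer cells of a type and less RNA per cell cannot be told apart. The germline markers moved in the same direction as the 3 cullin and 2 skr- genes that passed above, and opposite to the 9 skr- genes that passed below. Sperm and adult cuticle markers that passed were above as well. The part of any of these markers in the results was not tested. Prep 1 stood somewhat apart: its log2 ratios correlated with those of preps 2 and 3 at 0.822 and 0.798 across genes, against 0.919 between preps 2 and 3. Genes are not independent replicates, and these correlations are descriptions only.

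The 2 families leaned to opposite sides of the reference. The 5 cul- genes comprised 3 above it, 0 below and 2 that did not pass, with a median log2 ratio of 0.41. The 16 skr- genes comprised 2 above, 9 below and 5 that did not pass, with a median of −0.44. Calls come from limma's one-sample test against 0, with Benjamini-Hochberg adjustment over all 15062 genes at 0.05. By the same test 21.7% of all genes were above and 22.2% below, and the median over all genes was 0.00. Without prep 1 the counts were again 3 and 0 for the cul- genes and 2 and 9 for the skr- genes. In preps 1, 2 and 3 the medians were 0.39, 0.44 and 0.42 for the cul- genes and −0.45, −0.42 and −0.43 for the skr- genes. Among the 5 cul- genes the median was the value of cul-4 in every prep, so its narrow spread is that of 1 gene. Without prep 2 or without prep 3, 1 skr- gene was above and 6 were below, and 2 cul- genes were above. Over all genes, too, fewer passed in each direction in both of these fits than with all preps. Without prep 1 more of all genes passed in each direction. A call that ended without prep 2 or prep 3 therefore cannot by itself be told apart from this wider loss. With blocks of neighbouring probes centred, 2 cul- genes were above and 0 below, and their median, again the value of cul-4, fell to 0.27. In that setting 3 skr- genes were above and 10 below, with a median of −0.45.

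**Figure D1:**
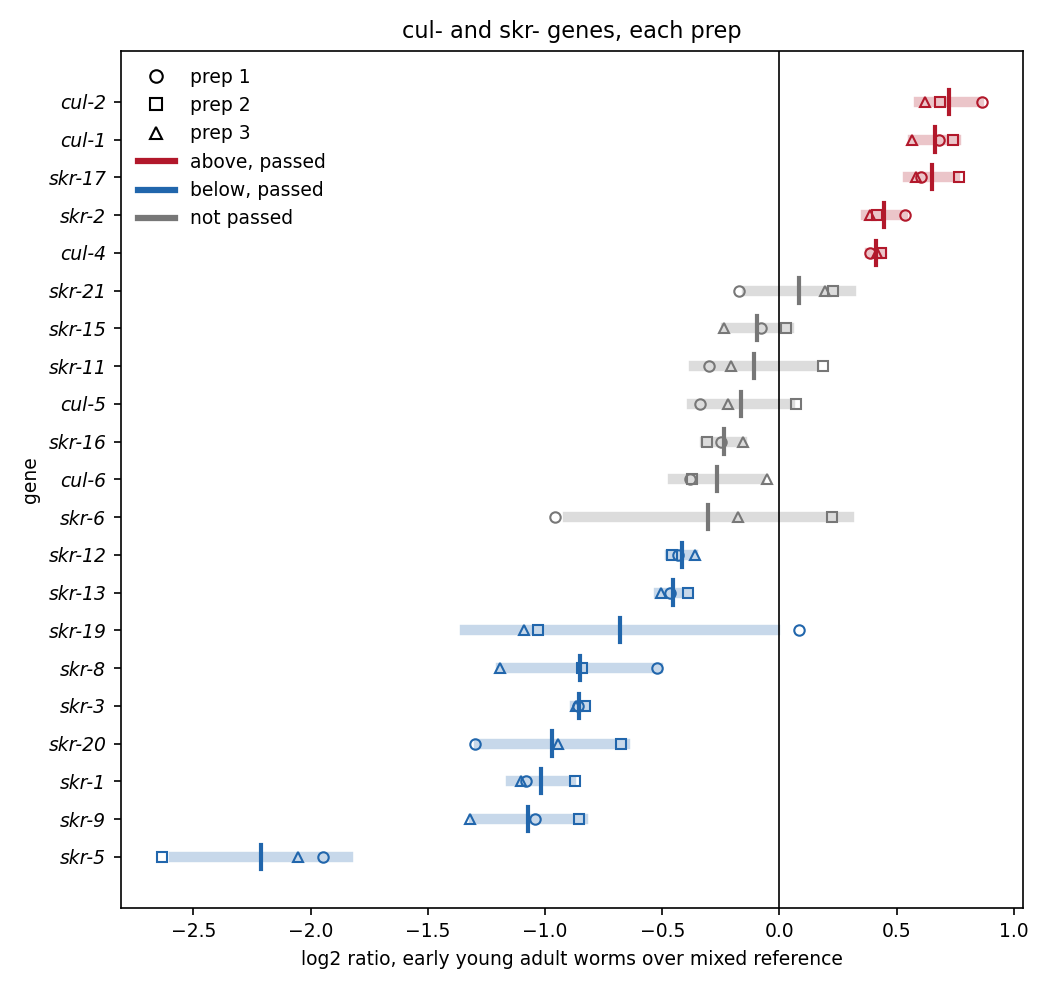
Log2 ratio of early young adult worms over the mixed reference (x axis) for the 21 cul- and skr- genes (y axis), ordered by mean. Open symbols are the 3 preps, the vertical tick is the mean and the pale bar is the mean ± SD. The 5 genes that passed above the reference lie between 0.41 and 0.72, and skr-5 at −2.21 lies apart from the other genes below it.

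Among the cullins, the highest was cul-2, the scaffold of elongin-based ligases, which in this animal is needed for germline cell division, meiosis and the polarity of the early embryo. Its log2 ratio was 0.86 in prep 1, 0.68 in prep 2 and 0.62 in prep 3. Every prep was above the reference, with a mean of 0.72 ± 0.13 (SD, n = 3), 1.65-fold above it (limma adjusted p = 0.00180). The SCF scaffold gene cul-1, known for letting cells leave the cell cycle, was at 0.68, 0.74 and 0.56 in preps 1, 2 and 3. All preps were likewise above, with a mean of 0.66 ± 0.09 (SD, n = 3), 1.58-fold above the reference (limma adjusted p = 0.00269). The values of cul-1 and cul-2 overlapped, and neither was higher in every prep. With blocks of neighbouring probes centred both still passed, but cul-1 at 0.56 was then higher than cul-2 at 0.47. The block around cul-2 had medians of 0.36, 0.18 and 0.23 in preps 1, 2 and 3.

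The gene cul-4 encodes the scaffold that works with DDB-1 and keeps DNA from being replicated again within a cycle. It was at 0.39, 0.44 and 0.42 in the 3 preps, a spread of 0.05. Its mean of 0.41 ± 0.02 (SD, n = 3; limma adjusted p = 0.0261) was the smallest shift among the members that passed. This call ended when prep 2 was left out (0.40, adjusted p = 0.197) and when prep 3 was left out (0.41, adjusted p = 0.139). It also ended after centring blocks of neighbouring probes (0.27, adjusted p = 0.123) and against a margin of 1.2-fold (limma adjusted p = 0.331). The block of 200 probes that holds cul-4 on the probe list had medians of 0.28, 0.02 and 0.13 in preps 1, 2 and 3. All preps of cul-4 were below all preps of cul-1 and of cul-2.

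The remaining cullins did not pass. cul-5, whose product pairs with the RING protein RBX-2, was at −0.34, 0.07 and −0.22 in the 3 preps, a mean of −0.16 ± 0.21 (SD, n = 3; limma adjusted p = 0.385). The preps lay on both sides of the reference, and the 95% interval of the mean ran from −0.48 to 0.15. cul-6 encodes a cullin that is known from the response of the intestine to intracellular pathogens and heat. It was at −0.38, −0.37 and −0.05, a mean of −0.27 ± 0.19 (SD, n = 3; limma adjusted p = 0.147), with an interval from −0.58 to 0.04. The 2 genes overlapped each other and lay below cul-1, cul-2 and cul-4 in every prep. In all, 8 of the 10 pairs of cullin genes did not overlap. The pairs reuse the same genes, and the share among pairs of all genes was not computed. An exact sign-flip permutation test of a difference over 3 preps, two-sided, cannot give a p below 0.25, so that test cannot settle any of these differences, and no other test of them was run.

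The Skp1 homologs skr-1 and skr-2 encode the adaptors closest to Skp1 of other animals. They bind CUL-1, lie next to each other on chromosome I with no other coding gene or pseudogene between them, and had ratios on opposite sides of the reference. skr-1 was at −1.08, −0.87 and −1.10 in preps 1, 2 and 3. This is a mean of −1.02 ± 0.13 (SD, n = 3), 2.03-fold below the reference (limma adjusted p = 2.66e-04), and it passed under 11 of the 11 other settings that kept the moderation of the variance. skr-2 was at 0.54, 0.42 and 0.39, with all preps above the reference and a mean of 0.45 ± 0.08 (SD, n = 3; limma adjusted p = 0.0194). Its call ended when prep 2 was left out (0.46, adjusted p = 0.125), when prep 3 was left out (0.48, adjusted p = 0.0850) and against a margin of 1.2-fold (adjusted p = 0.247).

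Within each array skr-2 exceeded skr-1 by 1.62, 1.29 and 1.49, a mean difference in log2 ratio of 1.47 ± 0.17 (SD, n = 3). The order was the same in 3 of 3 preps, and the exact sign-flip permutation p of 0.25 is the smallest that this test allows with 3 preps. This compares changes against the reference and not levels, since ratios do not show which gene is more abundant. The genes are close paralogs, so each probe may also hold signal from the other, and probe sequences were not used here.

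The genes skr-3 and skr-5 encode SKR proteins known to work with CUL-6, and both were below the reference. skr-5 was the lowest member, at −1.95 in prep 1, −2.63 in prep 2 and −2.05 in prep 3. Its mean of −2.21 ± 0.37 (SD, n = 3) is 4.63-fold below the reference (limma adjusted p = 1.05e-05) and stood at percentile 0.920 of all genes. Every prep of skr-5 was lower than every prep of each other member. skr-3 was at −0.86, −0.83 and −0.87, the narrowest spread of all members, with a mean of −0.85 ± 0.02 (SD, n = 3; limma adjusted p = 5.90e-04). The preps of the 2 genes did not overlap. Their cullin partner gene cul-6, at −0.27, did not pass, and its preps lay above those of both genes.

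**Figure D2:**
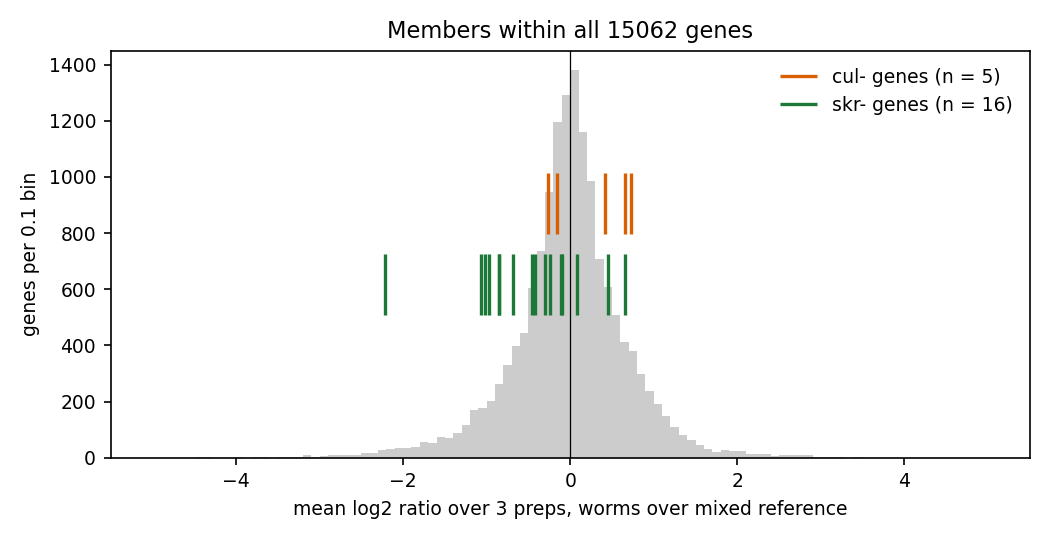
Histogram of the mean log2 ratio over 3 preps for all 15062 genes (x axis; y axis, genes per bin of 0.1), with coloured ticks at the 5 cul- and 16 skr- genes; the height of the ticks has no meaning. The skr- genes reach further below the reference than the cul- genes, and skr-5 at −2.21 stands at percentile 0.920.

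A cluster of 4 skr- genes lies on chromosome IV in the order skr-13, skr-9, skr-8 and skr-12 with no other coding gene or pseudogene between them, and all 4 were below the reference. skr-8 and skr-9 belong to the SKR proteins known to bind CUL-1, and loss of this subgroup disturbs larval growth and the shape of the body. skr-9 was at −1.04, −0.85 and −1.32 in preps 1, 2 and 3, a mean of −1.07 ± 0.23 (SD, n = 3), 2.10-fold below the reference (limma adjusted p = 2.99e-04). skr-8 was at −0.52, −0.84 and −1.19, with every prep below the reference, a mean of −0.85 ± 0.34 (SD, n = 3; limma adjusted p = 0.00181) and a range of 0.67 between preps. The inner genes skr-8 and skr-9 overlapped, and their probes fall in the same block of 200 on the probe list. Paralogs that lie side by side can share signal on an array, and their sequences were not compared here, so the separate values are uncertain.

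The outer genes of the cluster were shifted less. skr-13 was at −0.47, −0.39 and −0.50, a mean of −0.45 ± 0.06 (SD, n = 3; limma adjusted p = 0.0176). skr-12 was at −0.43, −0.46 and −0.36, a mean of −0.42 ± 0.05 (SD, n = 3; limma adjusted p = 0.0253). All preps of these genes were above all preps of their inner neighbours, by a mean of 0.62 ± 0.18 for skr-13 over skr-9 and of 0.43 ± 0.37 for skr-12 over skr-8 (SD, n = 3). Both outer calls ended when prep 2 was left out (adjusted p = 0.103 for skr-13 and 0.203 for skr-12) and when prep 3 was left out (adjusted p = 0.123 for skr-13 and 0.107 for skr-12). Against a margin of 1.2-fold neither passed (limma adjusted p = 0.230 for skr-13 and 0.319 for skr-12). Across chromosome IV the median of 2263 genes was 0.07. Of the 6 members there the 4 genes of this cluster passed below the reference, against 22.2% of all genes. The means of cul-6 and skr-16, on the same chromosome, were also below 0 but did not pass.

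**Figure D3:**
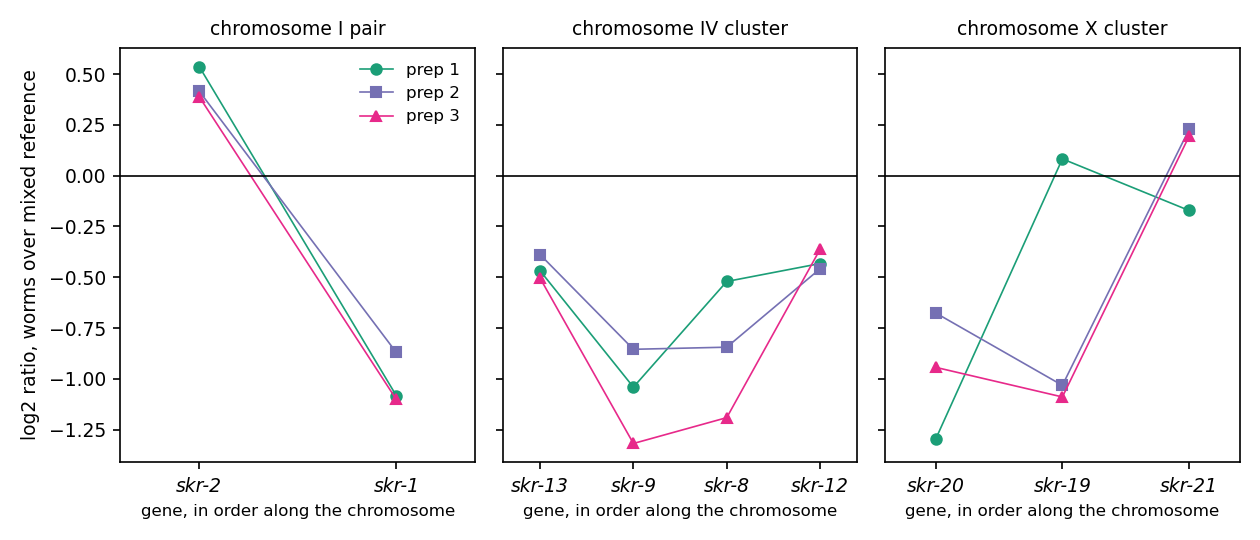
Log2 ratio of worms over the mixed reference (y axis) for skr- genes that lie next to each other, in their order along the chromosome (x axis), with 1 line for each prep; the lines only join values of a prep. The pair on chromosome I splits in every prep, the 4 genes on chromosome IV stay below 0 with the inner genes lowest, and skr-19 on the X chromosome is above 0, at 0.08, in prep 1 only.

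A row of 3 neighbouring genes on the X chromosome, in the order skr-20, skr-19 and skr-21, did not share a value. Probes of skr-20 and skr-19 fall in the same block of 200 on the probe list. As neighbouring paralogs these genes may also share signal, and their sequences were not compared. skr-20 was at −1.30, −0.68 and −0.94 in preps 1, 2 and 3, all below the reference, with a mean of −0.97 ± 0.31 (SD, n = 3), 1.96-fold below it (limma adjusted p = 7.57e-04). skr-19 was at 0.08 in prep 1 but at −1.03 and −1.09 in preps 2 and 3. Its mean of −0.68 ± 0.66 (SD, n = 3; limma adjusted p = 0.0300) therefore averages preps that disagree in sign. Without prep 1 it was −1.06 (adjusted p = 6.12e-05), while leaving out prep 2 (−0.50, adjusted p = 0.0896) or prep 3 (−0.47, adjusted p = 0.151) ended its call. Against a margin of 1.2-fold skr-19 did not pass either (limma adjusted p = 0.134).

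skr-21 was at −0.17, 0.23 and 0.19, a mean of 0.08 ± 0.22 (SD, n = 3; limma adjusted p = 0.671), and its preps lay on both sides of 0. Its probe sits among probes with low values on the list, whose medians were −0.38, −0.21 and −0.33. After centring such blocks it was at 0.39 and passed (adjusted p = 0.0339). The median of all 2260 X-linked genes was −0.22, so skr-20 and skr-19 were below their chromosome's median and skr-21 was above it.

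The highest skr- gene was skr-17, which lies on chromosome II away from other skr- genes. It was at 0.60, 0.77 and 0.58 in preps 1, 2 and 3, with all preps above the reference and a mean of 0.65 ± 0.10 (SD, n = 3), 1.57-fold above it (limma adjusted p = 0.00302). Its preps overlapped those of cul-1 and lay above those of skr-2.

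The other 4 skr- genes did not pass. skr-15 was at −0.08, 0.03 and −0.23, a mean of −0.09 ± 0.13 (SD, n = 3; limma adjusted p = 0.608). skr-11, which the reference table lists as a pseudogene, was at −0.30, 0.18 and −0.21, a mean of −0.11 ± 0.26 (SD, n = 3; limma adjusted p = 0.587). Both had preps on either side of the reference, and skr-11 was at 0.15 after blocks of neighbouring probes were centred.

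skr-16 was below the reference in every prep, at −0.25, −0.31 and −0.16, with a mean of −0.24 ± 0.08 (SD, n = 3; limma adjusted p = 0.171). The block of probes around it had a mean median of 0.18, and with such blocks centred it was at −0.42 and passed (adjusted p = 0.0236). skr-6 had the widest range of any member, 1.18, with −0.96 in prep 1, 0.22 in prep 2 and −0.18 in prep 3. Its mean of −0.30 ± 0.60 (SD, n = 3; limma adjusted p = 0.268) was 0.02 without prep 1.

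Ordered by mean, the 21 genes ran from cul-2 at 0.72 down to skr-5 at −2.21. Neighbours in that order did not overlap between skr-17 and skr-2, between cul-4 and skr-21, and between skr-9 and skr-5; in every other place they overlapped. The sign was the same in all preps for 15 of the 21 genes, against 66.3% of all genes. In all, 14 of the 21 members passed in either direction, against 44% of all genes. No member passed with a shift of at least 1 above the reference, and 3 passed with a shift of at least 1 below it. Over all 15062 genes these counts were 875 above and 1093 below.

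Other genes of ubiquitin conjugation were counted from lists that were chosen with earlier results of these data known. Of 114 listed genes 94 were measured, with 48 above the reference, 2 below and 44 that did not pass, and a median of 0.44. This stands beside 21.7% above and 22.2% below over all genes, and beside 9 of 16 below for the skr- genes.

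**Figure D4:**
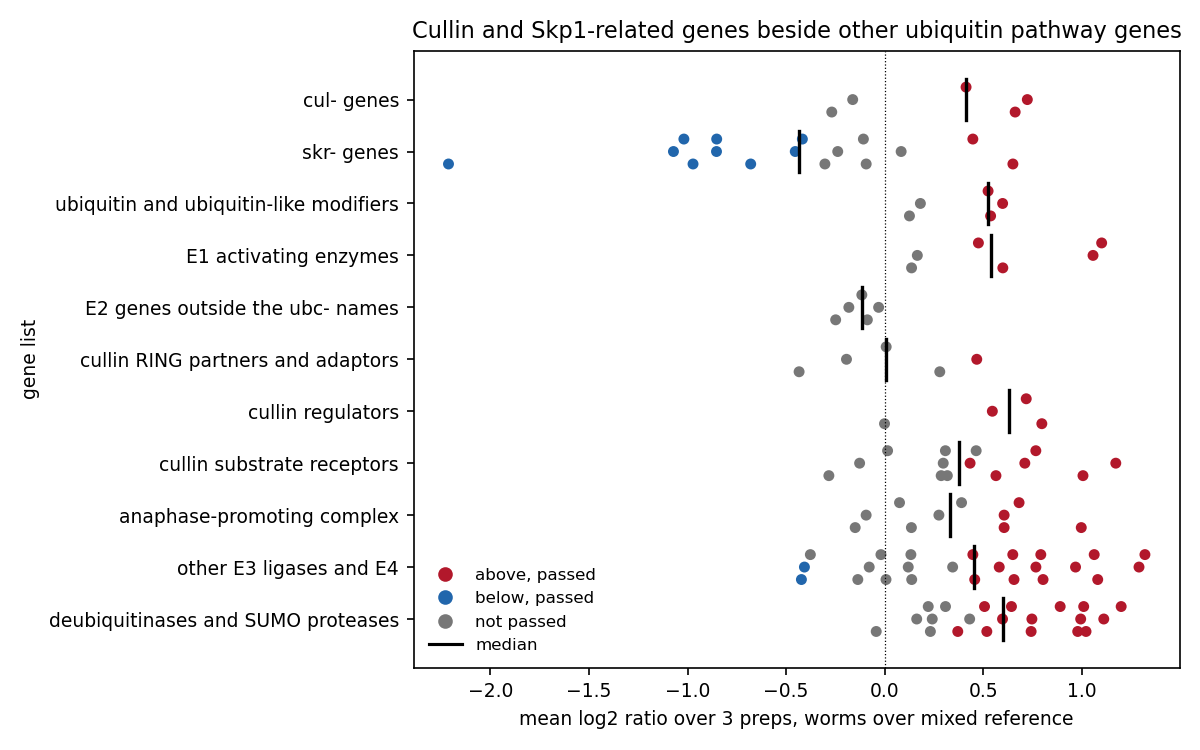
Mean log2 ratio over 3 preps, worms over the mixed reference (x axis), for the cul- and skr- genes and 9 lists of other ubiquitin pathway genes (y axis). Each point is a gene, coloured by the limma call, the vertical bar is the list's median, and the height of points within a row has no meaning. The deubiquitinase and SUMO protease list has its median at 0.60, and the skr- genes have theirs at −0.44.

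Upstream of the ligases, 4 of 6 measured E1 genes were above the reference, 0 were below and the median was 0.54. The count above was 2 without prep 2 and 2 against a margin of 1.2-fold. uba-1, which encodes the enzyme that activates ubiquitin, was at 1.55, 0.90 and 0.85 in preps 1, 2 and 3 (mean 1.10 ± 0.39, SD, n = 3; limma adjusted p = 5.82e-04). uba-5, which activates the modifier UFM1, was at 1.06 ± 0.03 (SD, n = 3; limma adjusted p = 1.80e-04). The genes of the E1 for NEDD8, the modifier that switches cullins on, did not pass: rfl-1 was at 0.17 ± 0.16 and ula-1 at 0.14 ± 0.07 (SD, n = 3). Of 5 modifier genes 3 were above, but 0 against a margin of 1.2-fold and 1 with blocks of neighbouring probes centred. The SUMO gene smo-1 was at 0.60 ± 0.44 (SD, n = 3; limma adjusted p = 0.0198), a call that ended without prep 3 (0.36, adjusted p = 0.206). The ubiquitin fusion gene ubq-2 was at 0.54 ± 0.22, while ned-8 at 0.18 ± 0.16 and the polyubiquitin gene ubq-1 at 0.13 ± 0.37 did not pass (SD, n = 3).

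E2 genes that do not carry a ubc- name gave no call over the 3 preps. Of 5 measured genes 0 were above, 0 were below by limma's test, and 0 had an unadjusted p under 0.05. Without prep 1 the count below was 1, and with blocks of neighbouring probes centred it was 2. let-70, an E2 gene essential for embryos and larvae, was at −0.03 ± 0.07 and uev-1, an E2 variant gene, at −0.09 ± 0.31 (SD, n = 3). uev-3 was at −0.18 ± 0.24 and ufc-1, the E2 for UFM1, at −0.25 ± 0.49 (SD, n = 3). Both lay on either side of 0 among the preps. ufc-1 was at 0.31 in prep 1 but at −0.44 and −0.62 in preps 2 and 3, and it passed without prep 1 (−0.53, adjusted p = 0.00530) and with blocks of neighbouring probes centred (−0.44, adjusted p = 0.0362).

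The direct partners of cullins differed in what was called. Of 5 RING and adaptor genes 1 was above, the elongin B gene elb-1 at 0.47 ± 0.19 (SD, n = 3; limma adjusted p = 0.0210), whose call ended when prep 2 (adjusted p = 0.0910) or prep 3 (adjusted p = 0.0526) was left out. Against a margin of 1.2-fold 0 of these 5 genes were above. The RING genes rbx-1 at 0.28 ± 0.21 and rbx-2 at −0.19 ± 0.10, and the elongin C gene elc-2 at −0.43 ± 0.42, did not pass (SD, n = 3). The value of elc-2 rests on prep 1, at −0.90: it was −0.20 without that prep, and without prep 2 it passed at −0.60 (adjusted p = 0.0366). Of 4 cullin regulators 3 were above, with a median of 0.63, but 1 without prep 2 and 1 against a margin of 1.2-fold. csn-2, a subunit gene of the COP9 signalosome that removes NEDD8 from cullins, was at 0.80 ± 0.39 (SD, n = 3; limma adjusted p = 0.00360). cand-1, which encodes the factor that exchanges substrate receptors, was at 1.16 and 1.03 in preps 1 and 2 but at −0.04 in prep 3. Its mean of 0.72 ± 0.66 passed (SD, n = 3; limma adjusted p = 0.0234), but not without prep 1 (0.50, adjusted p = 0.0728) or without prep 2 (0.56, adjusted p = 0.0530). dcn-1, which promotes the attachment of NEDD8, was at 0.55 ± 0.07 (SD, n = 3; limma adjusted p = 0.00727), a call that ended without prep 2 (0.50, adjusted p = 0.0892), and the catalytic subunit gene csn-5 was at 0.00 ± 0.25 and did not pass.

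Of 14 substrate receptors 6 were above and 0 below, with a median of 0.38, and 2 were below with blocks of neighbouring probes centred. zif-1, whose product lets CUL-2 ligases remove germline proteins from the somatic cells of the embryo, was at 1.33, 1.33 and 0.85 in preps 1, 2 and 3 (mean 1.17 ± 0.28, SD, n = 3; limma adjusted p = 2.27e-04). cdt-2, a receptor of CUL-4 ligases, was at 1.01 ± 0.26 (SD, n = 3; limma adjusted p = 4.95e-04). mel-26, the CUL-3 adaptor that removes meiotic katanin, was at −0.13 ± 0.07, and wdr-23, a CUL-4 receptor that restrains the stress factor SKN-1, at −0.28 ± 0.06 (SD, n = 3). Neither passed, although both were below 0 in every prep.

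Of 10 genes of the anaphase-promoting complex, a ligase built on a cullin-like subunit, 4 were above and 0 below, with a median of 0.33, and 2 were above against a margin of 1.2-fold. Its activator gene fzy-1 was at 1.00 ± 0.19 and emb-27 at 0.68 ± 0.08, whereas the RING subunit gene apc-11 was at −0.09 ± 0.14 and gfi-3 at −0.15 ± 0.32 and did not pass (SD, n = 3). Of 24 other ligase and chain-extension genes 13 were above and 2 below, with a median of 0.45. The highest were ufd-3, a cofactor of CDC-48, at 1.32 ± 0.25 and the HECT ligase gene ubr-5 at 1.29 ± 0.33 (SD, n = 3). The only calls below were hecw-1 at −0.42 ± 0.15 and nhl-1 at −0.41 ± 0.24 (SD, n = 3; limma adjusted p = 0.0290 and 0.0440), and both ended when prep 2 (adjusted p = 0.302 and 0.384) or prep 3 (adjusted p = 0.0849 and 0.170) was left out. Of 21 deubiquitinase and SUMO protease genes 14 were above and 0 below, with a median of 0.60. usp-48 was at 1.199 ± 0.22 and the SUMO protease gene ulp-2 at 1.11 ± 0.24, while ulp-4 at 0.16 ± 0.16 and the ubiquitin hydrolase gene ubh-1 at −0.04 ± 0.26 did not pass (SD, n = 3).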

How the data were processed

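Each array was deposited as a column of log2 ratios, 1 a probe, of worms against mixed reference per the labels' channels. The values themselves gave the base: 2 to the power of the value fell within 0.01 of a whole step of 0.001 for 100% of ratios under 1. Dyes, background correction, normalization and tools: not given in the sources used here. Ratios were used as deposited: column medians were 0.01, 0.01 and 0.02. Of 20000 probes, 19664 had a value on all 3 arrays, and 15655 had 1 platform gene symbol. Probes of a gene were averaged, giving 15062 genes. Spot intensities were not used here, so no filter on dim spots was made, and the number of arrays limits the precision.

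limma 3.58.1 (R 4.3.3) tested each gene's mean against 0 (intercept fit, eBayes, two-sided, prior 7.34 degrees of freedom), with Benjamini-Hochberg adjustment over all genes at 0.05. The reference's own spread is not in the test. Intervals are 95% intervals from this fit. The one-sample test was tried on simulated data with planted shifts, and the other steps were not. Chromosomes and gene order came from the WBcel235 gene table, with genes ordered by their start positions. Members and lists were chosen with earlier results of these data known. All members, and the 2 highest and 2 lowest genes of each pathway list, were named. Alternatives were median centring, scaling, quantile normalization, probes on at least 2 arrays, robust eBayes, no moderation, a 1.2-fold margin, probes in place of genes, blocks of 200 neighbouring probes centred, and each prep left out. Blocks followed the order of the probe list, and places on the array were not used.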

Additional observations from a re-analysis of the deposited data

How the results depend on the processing

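Median centring, scaling, quantile normalization, probes on at least 2 arrays, robust eBayes and probes in place of genes each left the call of all 21 members as it was. Without moderation of the variance 0 members and 0 pathway genes passed in either direction, as did 0 of all 15062 genes; at an unadjusted p under 0.05 the counts were 14 members and 5399 genes. Against a 1.2-fold margin 3 members were above (1 of them a skr- gene), and 29 pathway genes were above and 0 below. In that setting 6 skr- genes were below. Over all genes, too, fewer passed in each direction against this margin than in the main test. With blocks of 200 neighbouring probes centred 7 pathway genes were below. Over all genes this centring gave fewer calls above and more below than the main test. The signs of cul-5 (0.016), skr-11 (0.15), gfi-3 (0.048), ubh-1 (0.00098) and ulp-4 (−0.014) turned with it. With each prep left out the members above numbered 3 to 5 and those below 6 to 9. The cul- genes above then numbered 2 to 3 and the skr- genes above 1 to 2. The pathway genes numbered 34 to 52 above and 0 to 3 below. Over all genes fewer passed in each direction without prep 2 or prep 3 than with all preps, and more without prep 1. The sign turned for some values near 0: over the 3 fits with a prep left out, skr-6 ran from −0.57 to 0.024, csn-5 from −0.12 to 0.13, gfi-3 from −0.29 to 0.030, uev-1 from −0.21 to 0.088, let-70 from −0.057 to 0.0086, ubh-1 from −0.19 to 0.046 and ubq-1 from −0.074 to 0.30. csn-5 was above 0 under scaling (0.0032) and quantile normalization (0.011). None of these passed a test, and the cause was not tested. cul-1, cul-2, skr-17, skr-1, skr-3, skr-5, skr-8, skr-9 and skr-20 passed under all settings but the one without moderation. No paired analysis was possible because the preps form 1 group. Results for the ubc- genes could not be computed. Signal over background was not analysed here.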
